A study of Mus musculus with 6 samples.

Results

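The mitochondrial protein import machinery comprises the translocases, chaperones and peptidases that bring nuclear-encoded proteins into mitochondria. Its members were taken by symbol from the deposited count table: protein-coding genes whose symbols start with Timm or Tomm and a digit, together with Samm50, Mtx1, Mtx2, Pam16, Dnajc19, Grpel1, Grpel2, Pmpca, Pmpcb, Chchd4, Gfer and Romo1. This gave 35 genes of 16588 in the table, and all 35 passed the filter on low counts. One further symbol that matched, Tomm6os, is an antisense RNA and was left out. RNA was sequenced from 6 libraries of activated group 2 innate lymphoid cells (ILC2s), lymphocytes that reside in tissue and make type 2 cytokines. Of these, 3 came from C57BL/6 mice (wild type, WT) and 3 carried the label Cnr2 KO and are called KO-labelled here. Mice of both groups were given 0.5 µg of recombinant mouse IL-33 through the nose on 3 days. Lung ILC2s were isolated on day 4, and the sorted cells were kept in culture for 18 h. An amount of 10 pg of RNA is given for each of the 6 libraries. The labels give neither the Cnr2 allele, nor age or sex, nor whether a library came from 1 animal or from pooled animals, and they do not say that replicates were separate cultures, so p-values measure the spread between these samples only.

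Most mitochondrial proteins are made in the cytosol as precursors and cross the outer membrane through the TOM complex. From there the TIM23 complex and its motor take proteins with a cleavable presequence into the matrix, where the processing peptidase removes the presequence. The small TIM chaperones escort hydrophobic precursors across the intermembrane space to the TIM22 complex in the inner membrane or to the SAM complex in the outer membrane, and the disulfide relay of Chchd4 and Gfer traps small cysteine-rich proteins in the intermembrane space. Lymphocytes that are activated to grow are known to enlarge their mitochondrial mass, which requires import.

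The library totals were 17867541 to 19399819 counts in 5 libraries and 129617689 in WT replicate 2, 6.88 times their mean depth. Cnr2, which encodes the cannabinoid receptor CB2 and is the targeted gene, stood at 3.99, 3.89 and 3.17 CPM (counts scaled to a common library size) in WT and at 7.55, 7.42 and 7.49 CPM in the KO-labelled libraries. It was thus higher, not lower, in the latter (log2 fold change 1.01, SE 0.16, edgeR adjusted p = 2.11e-05), so the groups are named as labelled. The table has 1 value per gene, so reads over a deleted part could not be checked, and whether labels were exchanged or the allele leaves a transcript was not tested. An exchange would turn the direction of every difference given here. The ILC2 markers Gata3, Rora and Il1rl1 were present in all 6 libraries, and all 13 listed ILC2 markers were in the table, with Thy1 low at 0.845 to 3.88 CPM. Of these markers 9 were called higher and 3 lower in the KO-labelled libraries, Gata3 for example at 279 to 303.8 CPM in WT and 1052 to 1084 CPM in the others. The 3 called lower were Il2ra, Il13 and Areg. Il2ra went from 5324 to 5576 CPM in WT to 2484 to 2830 CPM in the KO-labelled libraries. Il13 went from 147.8 to 152.6 CPM to 65.15 to 92.85 CPM, and Areg from 240.4 to 246.9 CPM to 134.9 to 143.4 CPM. The summed ILC2 markers were 14270 to 14820 CPM in WT and 13330 to 14430 CPM in the KO-labelled libraries. Among markers of other cells, 7 of 10 T cell markers were in the table and summed to 79.4 to 83.6 CPM in WT and 155 to 169 CPM in the KO-labelled libraries. Of the 6 T cell markers tested 5 were called higher and 1 lower. The marker called lower was Trac, at 1.261 to 1.796 CPM in WT and 0.3081 to 0.6943 CPM in the KO-labelled libraries. Cd3e was at 0.976 to 1.80 CPM in WT and 1.94 to 2.51 CPM in the KO-labelled libraries (adjusted p = 0.0222), and Cd4, Cd8a and Cd8b1 were not among the rows. Other marker lists also summed higher in every KO-labelled library than in any of WT. These were epithelial (4 of 6 markers, 12.6 to 27.1 against 45.6 to 51.6 CPM), dendritic (5 of 7, 10.9 to 13.5 against 20.4 to 25.6 CPM), B cell (1 of 5, 16.1 to 17.2 against 25.1 to 26.3 CPM), macrophage (4 of 8, 1.10 to 2.18 against 3.44 to 6.49 CPM) and mast cell, basophil and eosinophil markers (3 of 7, 1.58 to 3.43 against 3.70 to 4.33 CPM). In the KO-labelled libraries the epithelial sum was almost all Epcam and the dendritic sum almost all Xcr1. Other markers of these lists went the other way. Krt18 (epithelial), Batf3 and Zbtb46 (dendritic) and Mcpt8 (mast cell list) were lower in every KO-labelled library than in any of WT. Endothelial markers (2 of 5, almost all Pecam1) summed lower, at 106 to 114 CPM in WT against 39.3 to 40.3 CPM, as did ILC3 markers (3 of 5, 2.64 to 3.37 against 0.822 to 1.16 CPM). The groups overlapped for NK cell (3 of 6, 57.0 to 77.8 against 46.1 to 59.8 CPM), fibroblast (4 of 5, 0.999 to 4.99 against 1.33 to 5.93 CPM) and neutrophil markers (3 of 6, 0.264 to 0.473 against 0.154 to 1.11 CPM). The part of other cells in the values below was not tested, and in bulk RNA fewer cells of a type and less RNA per cell cannot be told apart.

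The comparison set the KO-labelled libraries against WT. For the import machinery, 30 of 35 genes were lower in the KO-labelled libraries, 0 were higher and 5 did not pass the test (quasi-likelihood test of edgeR, adjusted p under 0.05 after Benjamini-Hochberg over 12150 genes tested). Across all genes tested, 33.2% were called lower and 33.1% higher, 66.3% in all. At an adjusted p under 0.01, 28 members were lower and 0 higher, against 28.5% and 28.1% of all genes tested. The count of 0 higher members was also 0 at an unadjusted p under 0.05 and in DESeq2 and limma-voom. The members' median log2 fold change was -0.57, against 0.01 over all genes tested. The 35 genes together summed to 3787, 3848 and 3832 CPM in WT replicates 1, 2 and 3, against 2295, 2425 and 2388 CPM in the KO-labelled libraries. As a share of all counts the members took 0.378 to 0.383% in WT and 0.230 to 0.241% in the KO-labelled libraries.

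A fold of at least 1.5 was reached by 16 of the 35 genes, all lower, where 15.7% of all genes tested were called at least 1.5-fold lower. At least 2-fold lower were 7 members, Tomm40, Chchd4, Timm8a1, Tomm5, Tomm20, Timm10 and Timm9, against 7.47% of all genes tested. The 3 values of one group lay wholly below those of the other in the 30 called genes, as in 34.8% of all genes in this direction, and the groups overlapped in the other 5 (Timm8b, Timm10b, Timm17b, Romo1 and Dnajc19). The exons of 18 members overlap those of another annotated gene, and reads of such pairs cannot be assigned without the strand setting. Of the 17 members with no such overlap, 17 were lower, with a median log2 fold change of -0.73, and of the 18 with an overlap 13 were lower, with a median of -0.43.

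**Figure D1:**
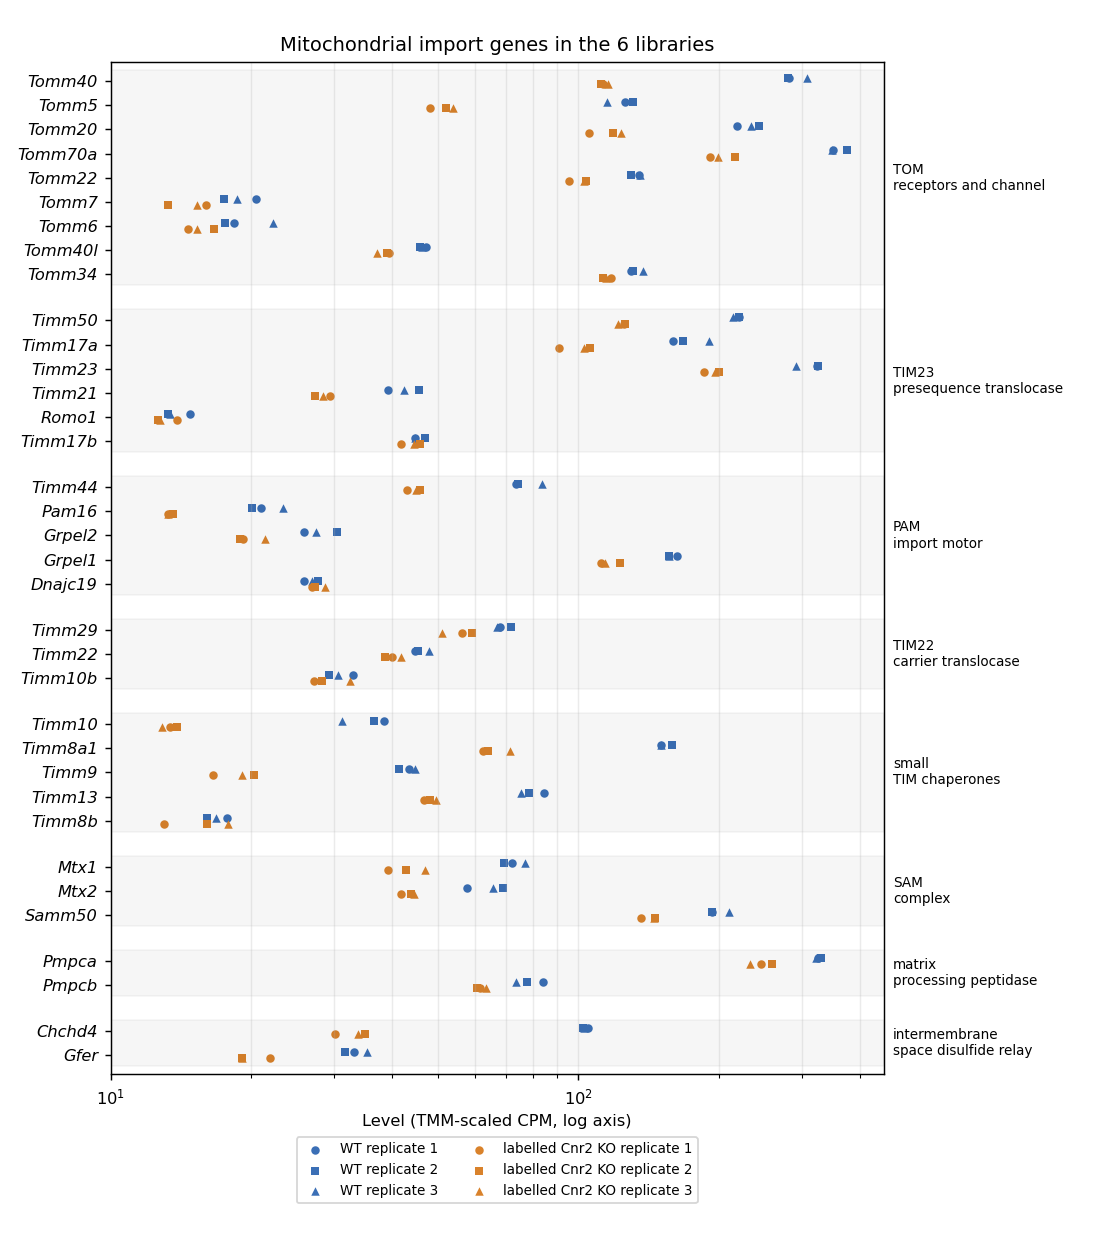
Level of each of the 35 import genes in each of the 6 libraries (horizontal log axis, TMM-scaled CPM), grouped by role. Blue symbols are WT and orange symbols the KO-labelled libraries, with a circle, square and triangle for replicates 1, 2 and 3, and in 30 of the 35 rows every orange symbol lies to the left of every blue one.

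The TOM complex is the entry gate of the outer membrane, and 9 of 9 genes listed with it were lower in the KO-labelled libraries. This and the counts of the other groups of members below are read beside the 33.2% lower and 33.1% higher over all genes tested. These 9 include Tomm34, a cytosolic cochaperone. Tomm40 (ENSMUSG00000002984.17, chromosome 7, 19701313 to 19715438, GRCm38), the barrel that forms the channel, stood at 282, 280.2 and 308 CPM in WT and at 113, 112 and 116 CPM in the KO-labelled libraries. It was 2.55-fold lower (log2 fold change -1.35, SE 0.05, adjusted p = 3.38e-14), and the groups were separated by far more than their spread. Tomm5, a small subunit of the complex, went from 126, 131 and 115 CPM to 48.2, 52.0 and 53.9 CPM, 2.42-fold lower (adjusted p = 1.93e-12). The receptors differed in size of change. Tomm20, which binds presequences, was at 218, 244 and 234 CPM in WT and at 106, 118 and 123 CPM in the KO-labelled libraries, 2.01-fold lower (log2 fold change -1.01, SE 0.06, adjusted p = 2.31e-11). Tomm70a, which receives carrier precursors from cytosolic chaperones, was at 350.0, 374.5 and 349 CPM against 192, 216 and 199 CPM, 1.77-fold lower. Tomm22, the central receptor that holds the complex together, was at 135, 129.5 and 136 CPM against 95.7, 104 and 103 CPM, 1.32-fold lower (log2 fold change -0.40, SE 0.05).

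The remaining genes listed with TOM were lower by small amounts. Tomm7 and Tomm6, small subunits that govern assembly, were 1.26-fold and 1.24-fold lower at 13.2 to 22.3 CPM, and their calls were lost under some settings (adjusted p up to 0.126 for Tomm7 and 0.134 for Tomm6, each with an offset for GC content and length). Tomm34, a cytosolic cochaperone, was at 129.6 to 138 CPM in WT and 113 to 117 CPM in the KO-labelled libraries, 1.16-fold lower (adjusted p = 1.26e-03). Tomm40l, a paralog of the channel gene, was 1.21-fold lower, with 47.3, 45.8 and 46.3 CPM in WT and 39.4, 39.0 and 37.0 CPM in the KO-labelled libraries.

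In the TIM23 complex, the inner membrane gate for presequence proteins, 4 of 6 genes were lower. Timm23 (ENSMUSG00000013701.13, chromosome 14, 32180162 to 32201898), its channel-forming core, was at 323, 325 and 292 CPM in WT and 186, 200.2 and 196 CPM in the KO-labelled libraries, 1.62-fold lower (log2 fold change -0.69, SE 0.05, adjusted p = 6.85e-10). Timm50, the receptor facing the intermembrane space, went from 220.5, 220.0 and 214 CPM to 125, 126 and 121 CPM, 1.76-fold lower (adjusted p = 1.48e-11). Timm21, which links the complex to TOM, was 1.499-fold lower, from 39.1 to 45.6 CPM in WT to 27.3 to 29.5 CPM. Romo1, a small protein of this translocase, was at 14.8, 13.3 and 13.4 CPM and 13.9, 12.7 and 12.8 CPM and did not pass (adjusted p = 0.578), with a 95% interval of the ratio of 0.819 to 1.11.

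The core subunit that partners Timm23 exists as a pair of paralogs, of which Timm17a alone was called. Timm17a was at 159, 167 and 189.8 CPM in WT and 91.0, 106 and 103 CPM in the KO-labelled libraries, 1.72-fold lower (log2 fold change -0.78, SE 0.07, adjusted p = 4.81e-09). Timm17b was at 44.65, 47.1 and 44.8 CPM and 41.7, 45.8 and 44.5 CPM (log2 fold change -0.05, SE 0.07, adjusted p = 0.511), with overlapping groups and a 95% interval of the ratio of 0.873 to 1.065. Within each library the ratio of Timm17a to Timm17b counts was 3.57, 3.55 and 4.24 in WT and 2.18, 2.31 and 2.31 in the KO-labelled libraries, a mean of 3.79 ± 0.392 against 2.27 ± 0.0742 (SD, n = 3 each). The ratio of Tomm40 to Tomm40l was 5.96, 6.12 and 6.66 in WT and 2.87, 2.87 and 3.13 in the KO-labelled libraries, and here too the groups did not overlap. The ratio of Grpel1 to Grpel2 was 5.70 ± 0.579 and 5.87 ± 0.563 (SD, n = 3 each), with overlapping groups. These ratios do not depend on the scaling between libraries. A two-sided exact permutation test of the log2 ratio gave p = 0.1 for each of the first pairs, the smallest that 3 against 3 libraries can give, and p = 0.7 for Grpel1 to Grpel2, or 0.15, 0.15 and 0.7 after Benjamini-Hochberg adjustment over 3 pairs.

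**Figure D2:**
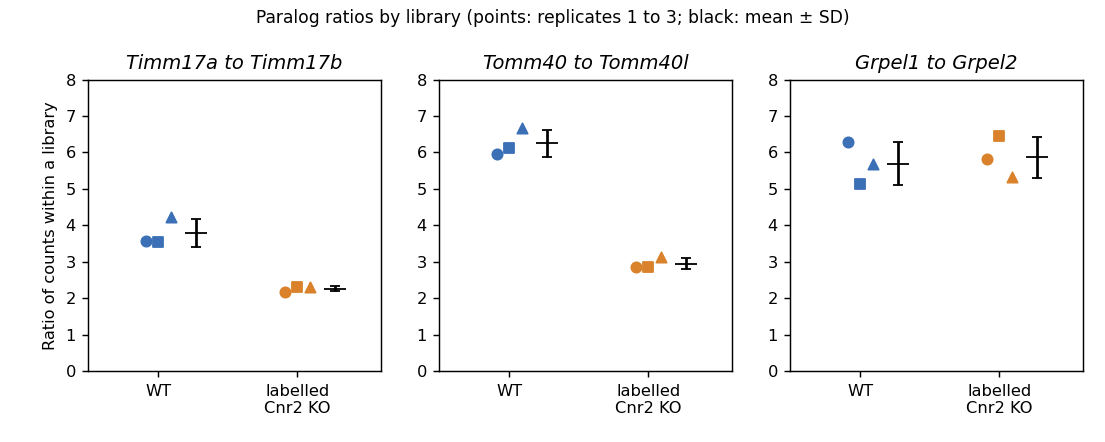
Ratio of the counts of paralogous import genes within each library (vertical axis, no unit), for 3 pairs. Points are replicates and black bars the mean ± SD of 3 libraries: Timm17a to Timm17b and Tomm40 to Tomm40l are lower in all 3 KO-labelled libraries, and Grpel1 to Grpel2 overlaps between groups.

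The import motor pulls precursors into the matrix with the help of mitochondrial Hsp70, and 4 of its 5 listed genes were lower. Timm44, which tethers Hsp70 to the channel, was at 73.7, 74.3 and 83.8 CPM in WT and 42.9, 45.8 and 45.02 CPM in the KO-labelled libraries, 1.73-fold lower (adjusted p = 4.71e-09). Pam16, a regulator of the motor's J proteins, was 1.59-fold lower, from 20.04 to 23.4 CPM in WT to 13.2 to 13.6 CPM. The nucleotide exchange factors of Hsp70 were both lower, Grpel1 from 163, 156 and 156 CPM to 112, 122 and 114 CPM (1.36-fold, adjusted p = 2.97e-07) and Grpel2 from 25.9, 30.5 and 27.5 CPM to 19.2, 19.0 and 21.4 CPM (1.42-fold, adjusted p = 6.09e-05). Dnajc19, a J protein of the motor, was the only member with a positive log2 fold change (0.04, SE 0.08, adjusted p = 0.692, 95% interval of the ratio 0.916 to 1.148). It was at 25.9 to 27.7 CPM in WT and 26.9 to 28.7 CPM in the KO-labelled libraries. Dnajc15, another J protein, is no member and was named after its value was seen. It was 1.46-fold lower (adjusted p = 9.34e-06). Hspa9, the mitochondrial Hsp70 that drives the motor but is no member, was at 940.0, 929 and 934 CPM in WT and 486, 467 and 457 CPM in the KO-labelled libraries, 1.99-fold lower (adjusted p = 2.1e-13).

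Of the 5 small TIM chaperones, 4 were lower in the KO-labelled libraries and 3 of them at least 2-fold. Timm10 (ENSMUSG00000027076.10, chromosome 2, 84826997 to 84830213) and Timm9 (ENSMUSG00000021079.16, chromosome 12, 71123173 to 71136684) form a joint chaperone ring. Timm10 was at 38.4, 36.65 and 31.3 CPM in WT and 13.4, 13.9 and 12.9 CPM in the KO-labelled libraries, 2.65-fold lower (log2 fold change -1.41, SE 0.09, adjusted p = 1.4e-10). Timm9 went from 43.5, 41.3 and 44.65 CPM to 16.6, 20.3 and 19.1 CPM, 2.31-fold lower (log2 fold change -1.21, SE 0.09, adjusted p = 3.22e-10). Timm8a1, whose human counterpart is mutated in a deafness-dystonia syndrome, and Timm13 form the other ring. Timm8a1 (ENSMUSG00000048007.4, chromosome X, 134537256 to 134541865) was at 150.3, 159 and 150.1 CPM in WT and 62.5, 64.2 and 71.6 CPM in the KO-labelled libraries, 2.32-fold lower (adjusted p = 1.22e-12), and Timm13 was at 84.2, 78.4 and 75.6 CPM against 46.9, 48.2 and 49.7 CPM, 1.65-fold lower. Timm8b, a close relative of Timm8a1, was at 17.8, 16.1 and 16.8 CPM and 12.99, 16.1 and 17.9 CPM, with overlapping groups (adjusted p = 0.427, 95% interval of the ratio 0.790 to 1.095). Counts of Timm8a1, and likewise of Pmpca, Timm10b and Tomm40l, were not whole numbers in any of the 6 libraries, and where the reads concerned also aligned was not tested.

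The TIM22 complex, which inserts carriers into the inner membrane, had the smallest summed difference of the 8 groups of members, from 145.9 ± 0.361 to 125.1 ± 1.27 CPM over its 3 genes (SD, n = 3 each). Timm22, its channel, was at 44.7, 45.4 and 48.0 CPM in WT and 40.1, 38.6 and 41.8 CPM in the KO-labelled libraries, 1.15-fold lower (log2 fold change -0.20, SE 0.07, adjusted p = 0.0177). That call was lost with upper quartile scaling (adjusted p = 0.0582), with the GC and length offset (0.0812) and without KO-labelled replicate 2 (0.0742). Timm29, a subunit found in animals, was 1.24-fold lower, from 66.9 to 71.6 CPM in WT to 51.0 to 59.3 CPM (adjusted p = 4.11e-04). Timm10b, the small TIM bound to this complex, was at 29.3 to 33.0 CPM and 27.2 to 32.5 CPM and did not pass (adjusted p = 0.465, 95% interval of the ratio 0.8395 to 1.076). Its whole annotated exon sequence is one block that also holds exons of Arfip2 and of 2 other annotated genes.

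The SAM complex folds barrel proteins such as Tomm40 into the outer membrane, and all 3 of its genes were lower. Samm50, the insertase, was at 193, 193 and 209.7 CPM in WT and 136, 146 and 145 CPM in the KO-labelled libraries, 1.40-fold lower (log2 fold change -0.48, SE 0.05, adjusted p = 1.09e-07). The metaxins Mtx1 and Mtx2, its partners on the cytosolic face, were 1.69-fold and 1.49-fold lower, Mtx1 from 69.3 to 76.9 CPM in WT to 39.2 to 47.1 CPM and Mtx2 from 57.8 to 68.9 CPM to 41.8 to 44.6 CPM. The 2 subunits of the matrix processing peptidase were lower by less. Pmpcb, the catalytic subunit, was at 84.0, 77.7 and 73.7 CPM in WT and 61.5, 60.6 and 63.6 CPM in the KO-labelled libraries, 1.27-fold lower (adjusted p = 8.84e-05). Pmpca, the subunit that recognises the substrate, was at 324 to 329 CPM against 233 to 259.9 CPM, 1.32-fold lower (adjusted p = 5.08e-07).

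The disulfide relay of the intermembrane space showed the largest fold of any member. Chchd4 (ENSMUSG00000034203.8, chromosome 6, 91462172 to 91473546), the oxidoreductase also called MIA40, was at 105, 102 and 103 CPM in WT and 30.2, 35.03 and 33.9 CPM in the KO-labelled libraries. This was a 3.13-fold difference (log2 fold change -1.64, SE 0.07, adjusted p = 7.99e-14), the log2 fold change lay between -1.69 and -1.58 under 15 alternative settings, and no other annotated gene overlaps Chchd4. Gfer, the sulfhydryl oxidase that reoxidises Chchd4, was at 33.1, 31.8 and 35.4 CPM in WT and 21.9, 19.1 and 19.1 CPM in the KO-labelled libraries, 1.66-fold lower (adjusted p = 3.97e-07). The 2 genes together summed to 136.7 ± 2.23 CPM in WT, against 53.1 ± 1.04 CPM in the KO-labelled libraries. The same sum was 1355 ± 24.9 against 767.5 ± 23.0 CPM for the 9 genes listed with TOM, Tomm34 among them. For the 5 small TIMs it was 327.9 ± 8.37 against 162 ± 9.37 CPM (SD, n = 3 each).

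**Figure D3:**
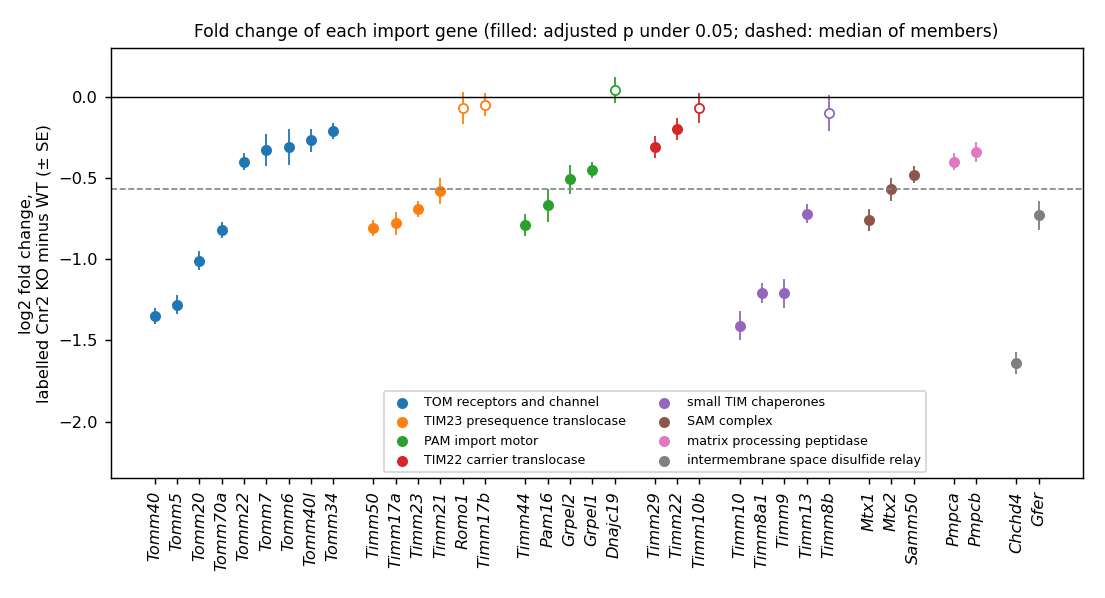
Log2 fold change of each import gene between the KO-labelled libraries and WT (vertical axis, bars ± SE), coloured by role. Filled points passed the test and open points did not, the dashed line is the members' median of -0.57, and Chchd4 at -1.64 and Timm10 at -1.41 lie lowest.

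Compared per length, as CPM per kilobase of annotated exon, Timm23 was the most abundant member in both groups, at 175 ± 10.4 in WT and 109 ± 4.12 in the KO-labelled libraries (SD, n = 3 each). In WT it was followed by Tomm5 at 143 ± 9.25, Timm8a1 at 108 ± 3.43, Timm50 at 81.3 ± 1.28 and Tomm22 at 80.7 ± 2.03, of which the last pair did not differ beyond their spread. In the KO-labelled libraries the order after Timm23 was Tomm22 at 61.1 ± 2.73, Tomm5 at 59.2 ± 3.36 and Pmpca at 57.5 ± 3.17, which did not differ beyond their spread. Chchd4 ranked 20th of 35 in WT, at 19.9 ± 0.249, and 32nd in the KO-labelled libraries, at 6.36 ± 0.487. Grpel2 was lowest in both groups, at 4.14 ± 0.345 and 2.94 ± 0.194. Annotated exons that these cells do not use lower such values, so the order is approximate.

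The promoters of the members, whether called lower or not, were searched for letters bound by factors known to act on mitochondrial genes. RefSeq windows from 250 bases before to 50 after the annotated start (GRCm38.p6) were found for 31 of the 35 members, and not for Grpel2, Timm21, Tomm40l and Tomm7. The E-box CACGTG, recognised by MYC and its relatives, was in 4 of the 31 windows (12.9%), close to the 12.2% of promoters of tested genes and above the 8.09% of all promoters. The 4 genes were Tomm20, Timm9, Timm8a1 and Timm10, all at least 2-fold lower, whereas the windows of the other 3 members at least 2-fold lower, Tomm40, Chchd4 and Tomm5, held none. The core of ETS sites, CCGGAAG on either strand, which GABP binds, was in 14 of 31 windows (45.2%), against 21.7% of promoters of tested genes and 9.93% of all promoters. It was in 4 of the 16 members called at least 1.5-fold lower and in 10 of the 15 other members with a window. The YY1 letters AAGATGGC were in 2 windows, Mtx1 and Timm50 (6.45%, against 5.62% of tested genes and 3.19% of all), and the palindrome of NRF1 in 0 (2.49% of tested genes and 1.07% of all). Both strands were searched, and the only matches that overlapped, in Timm10 and Tomm22, were ETS cores of opposite strand. These shares are descriptions without a test, and a match is not shown to be bound. For NRF1 only the exact palindrome was searched. Other forms of the site were not counted, so the 0 does not mean that NRF1 sites are absent from these windows. Of the E-box windows 3 are shown with that of Timm8b, the small TIM gene that did not pass the test, as the bases before both the RefSeq and the GENCODE start, with E-boxes and ETS cores in capitals and coordinates on GRCm38.
Tomm20, minus strand, chr8:126945922-126946171: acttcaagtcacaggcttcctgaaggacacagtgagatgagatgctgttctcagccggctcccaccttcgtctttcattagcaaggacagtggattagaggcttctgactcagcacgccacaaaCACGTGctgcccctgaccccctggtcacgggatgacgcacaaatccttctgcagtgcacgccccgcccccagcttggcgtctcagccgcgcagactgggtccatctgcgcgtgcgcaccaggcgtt
Timm9, minus strand, chr12:71136685-71136925: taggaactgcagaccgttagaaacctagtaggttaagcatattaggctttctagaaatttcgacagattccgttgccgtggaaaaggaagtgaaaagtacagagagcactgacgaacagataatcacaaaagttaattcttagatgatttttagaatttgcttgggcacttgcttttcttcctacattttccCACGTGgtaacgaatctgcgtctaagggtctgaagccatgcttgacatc
Timm8a1, minus strand, chrX:134541866-134541920: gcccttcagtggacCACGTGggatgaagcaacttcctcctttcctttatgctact
Timm8b, plus strand, chr9:50603651-50603900: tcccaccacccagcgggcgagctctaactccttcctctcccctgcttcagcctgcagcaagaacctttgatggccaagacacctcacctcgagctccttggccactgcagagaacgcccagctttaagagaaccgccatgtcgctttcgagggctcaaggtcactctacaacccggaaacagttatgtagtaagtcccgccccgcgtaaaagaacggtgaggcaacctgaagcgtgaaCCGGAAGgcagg
Counted from the RefSeq start, the E-box begins at base -126 in Tomm20, at -58 in Timm9 and at -236 in Timm8a1, and the ETS core at -12 in Timm8b. Timm9 and Timm8a1 hold a second E-box, at base -1 and base 25, and the E-box of Timm10 begins at base 29.

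Genes that work next to the import machinery were read from lists that do not overlap the members, 101 tested genes in all. Of these, 58 were lower, 9 higher and 34 not called, with a median log2 fold change of -0.27. Over all genes tested 33.2% were lower and 33.1% higher, with a median of 0.01, and each list is read beside these shares. Of 13 other import factors 9 were lower and 1 higher, with a median of -0.42. Besides Hspa9, Oxa1l, which inserts proteins from the matrix side, was 1.502-fold lower, whereas Mtch1, an outer membrane insertase relative, was higher, from 168 ± 7.78 to 246 ± 1.53 CPM (SD, n = 3 each). Of 10 matrix chaperones and proteases 8 were lower and 0 higher, with a median of -0.63. Hspd1, the matrix chaperonin that folds imported proteins, was at 959.8, 1003 and 1077 CPM in WT and 308, 327 and 310.5 CPM in the KO-labelled libraries, 3.22-fold lower (adjusted p = 1.14e-15). Its partner Hspe1 was 3.08-fold lower and the protease Lonp1 1.68-fold. Of the 8 genes listed under later presequence processing 5 were lower and 0 higher. Among them were Htra2, Parl and Mipep, peptidases that were 1.91-fold, 1.89-fold and 1.61-fold lower. Lactb2, also lower (1.42-fold), was named after its value was seen. The places of Htra2 and Lactb2 in this list are doubtful.

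Where 33.2% of all genes tested were lower and 33.1% higher, 11 of 14 cytosolic chaperones that deliver precursors were lower and 1 higher. Their median was -0.51. Dnaja3, named after its value was seen, is among those lower (1.61-fold) but is known as a J protein of the mitochondrial matrix. Hsp90ab1 went from 4321 ± 91.9 to 2297 ± 46.2 CPM, Hsp90aa1 from 1575 ± 117 to 798 ± 41.8 CPM and Ubqln4, which shields membrane proteins in the cytosol, from 101 ± 4.89 to 51.7 ± 0.752 CPM (SD, n = 3 each). Of 12 MICOS and prohibitin genes, which shape the inner membrane, 9 were lower and 1 higher. The prohibitins Phb2 and Phb were 2.13-fold and 2.17-fold lower and Stoml2, a relative, 1.90-fold. The gene of this list called higher, 1810013L24Rik, was named after its value was seen, and its place in the list is doubtful. The porins Vdac1, Vdac2 and Vdac3, abundant outer membrane channels, were all lower, by 1.27, 1.28 and 1.17-fold.

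The lists of clients and regulators of import are read beside the 33.2% lower and 33.1% higher over all genes tested, and their difference from the import genes was not tested. Of 19 genes with paired cysteines listed as substrates of the Chchd4 relay, 7 were lower (36.8%), 2 higher and 10 did not pass, with a median of -0.09. This list is not all clients of the relay, and it leaves out the members, among them the small TIM genes. Chchd2 was 1.40-fold and Ndufs5, a complex I subunit, 1.68-fold lower, while Cmc2 was 1.52-fold higher. Of 10 genes of import stress and quality control 3 were higher and 2 lower. The other 5, named after their values were seen, did not pass: Atf4, Atf5, Dele1, Eif2ak1 and Usp30 (adjusted p 0.0758 to 0.947). Pink1 encodes a kinase that accumulates as protein on mitochondria whose import fails, which RNA values do not measure. Pink1 RNA was at 30.5, 30.3 and 29.5 CPM in WT and 117, 119 and 120.1 CPM in the KO-labelled libraries, 3.94-fold higher (log2 fold change 1.98, adjusted p = 1.11e-15). Ddit3, a stress transcription factor, was 1.89-fold higher and Msto1, a mitochondrial distribution factor, 1.89-fold lower. Of 12 regulators of mitochondrial biogenesis 4 were lower (33.3%), 1 higher and 7 did not pass, with a median of -0.10. Myc, a transcription factor that drives growth and binds E-boxes, was at 315, 304 and 351 CPM in WT and 87.9, 91.5 and 94.6 CPM in the KO-labelled libraries, 3.54-fold lower (adjusted p = 3.05e-15). Tfb2m, a mitochondrial transcription factor, was 1.90-fold and Pprc1, a coactivator, 1.42-fold lower. The part of these regulators in the levels of the import genes was not tested.

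**Figure D4:**
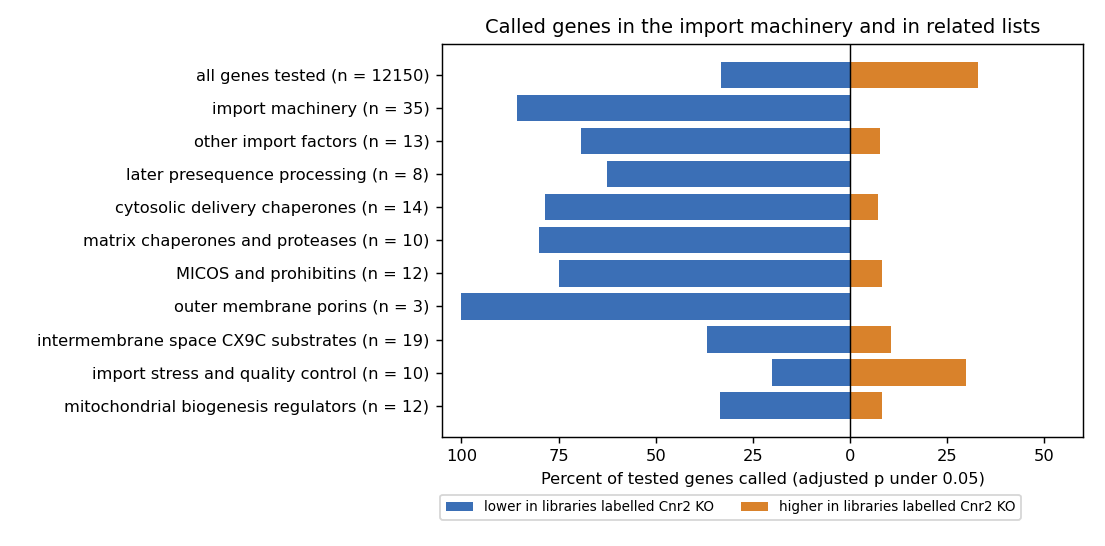
Percent of tested genes called lower (blue, to the left) or higher (orange, to the right) in the KO-labelled libraries, for all 12150 genes tested, the 35 import genes and 9 related lists, with the number of tested genes in brackets. The import genes have 30 lower and 0 higher, while all genes tested divide almost equally at 33.2% and 33.1%.

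Other nuclear gene families of the mitochondrion were counted in the same test, where 33.2% of all genes tested were lower and 33.1% higher. Of 78 mitochondrial ribosomal protein genes 69 were lower and 2 higher, with a median log2 fold change of -0.45. The share lower, 88.5%, was close to the 85.7% of the import genes. Of 79 tested nuclear genes for respiratory chain and ATP synthase subunits 31 were lower, 12 higher and 36 not called, with a median of -0.11, and of 37 tested SLC25 carriers, the main cargo of the TIM22 route, 19 were lower and 9 higher, with a median of -0.20. The difference between these families and the import machinery was not tested. At least 1.5-fold lower were 16 of the 35 import genes, 32 of the 78 ribosomal protein genes, 3 of the 79 respiratory chain genes and 9 of the 37 carriers. This compares with 15.7% of all genes tested. At least 2-fold lower were 7 of the 35 import genes, 4 of the 78 ribosomal protein genes, 0 of the 79 respiratory chain genes and 5 of the 37 carriers, against 7.47% of all genes tested.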

How the data were processed

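The authors' deposited table holds expected counts, estimated counts per gene that need not be whole, for 6 libraries: 59.08 to 81.23% of the values were within 0.02 of a whole number. The tools named by the submitters' processing notes are Partek 10.0, STAR 2.7.8 and DESeq2, and the build is mm10, without the role of each. How reads were counted, and whether by strand, is not given in the sources used here. Positions are from GENCODE M21 (GRCm38), which matched 16199 of 16588 symbols and all 35 members.

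Counts were rounded and tested with edgeR 4.0.16 in R 4.3.3 (quasi-likelihood test, TMM scaling, filterByExpr, genotype as the only term). Of the genes, 12150 were tested and 4438 left out. Adjusted p-values are Benjamini-Hochberg over all genes tested, from edgeR unless another tool is named. Levels are CPM after TMM scaling, and the SE of a log2 fold change is its size divided by the square root of the F statistic. The 95% interval of a ratio uses the t distribution with the degrees of freedom of the fit. The procedure was tested on simulated counts. Libraries of a group differed by more than sampling noise (mean chi-square per gene 4.14 to 8.95), so each was entered as 1 sample, which does not show that they are separate biological replicates.

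The members and lists were chosen with earlier results of these data known. Members given in every library were core subunits, paralogs and those with the smallest p, and in each related list up to 3 genes with the smallest p are named. Alternatives were DESeq2 size factors, upper quartile scaling, no filter, a stricter filter, DESeq2 1.42.0, limma-voom (limma 3.58.1), a replicate block, thinning of WT replicate 2, an offset for GC content and length (mgcv 1.9.3), an adjusted p under 0.01 and leaving out each library. Protein sequences were not analysed here.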

Additional observations from a re-analysis of the deposited data

How the results depend on the processing

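Over the alternative settings, 27 to 30 members were lower and 0 higher, and 15 to 18 were at least 1.5-fold lower. The lowest count, 27, came with the offset for GC content and length, which lost Timm22, Tomm6 and Tomm7. Leaving out 1 library at a time gave a median of -0.64 to -0.51 for the members, and log2 differences of the Grpel1 to Grpel2 ratio of -0.03 (without WT replicate 2, and without KO-labelled replicate 2) to 0.12, against 0.04 with all 6 libraries. Of 525 combinations of member and setting, 513 kept direction and side of the threshold and 8 lost a call (Timm22, Tomm6 and Tomm7). The other 4 changed sign in genes that were not called: with the GC and length offset Romo1 was at 0.12, Timm8b at 0.08 and Timm17b at 0.00, and leaving out 1 library at a time moved Timm8b between -0.21 and 0.02, the latter without KO-labelled replicate 1. The cause was not tested. The related lists had 56 to 60 genes lower and 8 to 10 higher. With upper quartile scaling all tested genes divided into 35.2% higher and 30.8% lower. Same-numbered libraries did not deviate together (correlations of 0.00571 to 0.0656), and they were not treated as pairs. So few libraries per group cannot show whether a batch was shared. The replicate block gave 30 members lower and 0 higher. With WT replicate 2, the deepest library, thinned to the depth of the others 30 members were lower, and without it 30.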

Other observations

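The antisense RNA Tomm6os, which overlaps Tomm6 and was left out of the members by its type, had 0 to 3 counts in each of the 6 libraries, whereas Tomm6 had 276 or more. Exons of Tomm6 also overlap those of Usp49 and Gm21981, and the part of these genes in its counts was not tested.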
